A study of Mus musculus with 2 samples.

Results

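The Hox genes of the mouse were read as a gene family in a pair of single-cell RNA libraries from inflamed colon, and were taken as every gene whose symbol is Hoxa, Hoxb, Hoxc or Hoxd followed only by a number. That gave 39 of the 32228 genes counted. Hox genes encode homeodomain transcription factors that give cells their position along the head-to-tail axis, and their paralog number follows their order along each cluster, from anterior to posterior. They are the classic targets of polycomb repressive complexes, where PRC1, with Ring1a or Ring1b as its ubiquitin ligase subunit, marks histone H2A and keeps the clusters silent in cells where they are not in use. In blood, some Hox genes are active in stem and progenitor cells and are turned down as cells mature, while the mesenchyme and epithelium of the gut keep the Hox code of their place on the body axis.

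The study asked what Ring1a, encoded by Ring1, does in immune cells during colitis, and gave dextran sulfate sodium (DSS), which injures the colonic epithelium, to both WT and Ring1AKO mice. Ring1AKO mice lack Ring1a in the whole body, so that other cells of the colon carry the knockout too, and the line was crossed to C57BL/6 J, with sex-matched littermates as the controls. The labels give an age of 8 to 10 weeks. Epithelium was stripped with EDTA, live cells were sorted from the lamina propria of the colon as 7-AAD- CD45+ cells, the cells of 5 mice were pooled per genotype, and each pool became 1 library of 10x Genomics 3′ RNA-seq, in which a transcript is read from its 3′ end and counted by unique molecular identifiers (UMIs). With 1 library per group there is no replicate, no test between the libraries was possible, and genotype and library cannot be told apart. Levels are UMIs scaled to 1000000 UMIs (CPM), which for 3′ tags do not depend on transcript length. Ratios are the Ring1AKO library over the WT library, and the 95% intervals in brackets are exact and cover counting error only. In each pair of values WT comes first.

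The WT library held 74414511 UMIs and the Ring1AKO library 81862096. Cells with at least 1000 UMIs, at least 500 genes and under 5% mitochondrial UMIs numbered 6005 and 7918, with a median of 6354 and 5035 UMIs. Ring1 itself had 828 and 816 UMIs, or 13.4 (12.5 to 14.3) and 11.8 CPM (11.0 to 12.7), a log2 ratio of -0.18 (-0.32 to -0.04). Since UMIs at the 3′ end can come from a transcript whose coding part is broken, this level checks nothing, and the genotypes rest on the labels, from which the WT library and the Ring1AKO library take their names. Cells were sorted into classes by marker gates. These were set on Cd79a for B cells, Jchain for plasma cells, Cd3e for T cells, Lyz2 for myeloid cells and S100a8 for neutrophils. The 6 listed markers of the B class summed to 4792 and 5523 CPM in their own gate. Those of the plasma and T classes summed to 215359 and 224106 CPM and to 3414 and 4149 CPM in theirs. Each list includes the gene its gate was set on, so these sums are no separate check of the gates. The libraries shared 11 cell barcodes. Ptprc, the gene of CD45, was itself lower in the Ring1AKO library, at 787 and 431 CPM outside cells with non-leukocyte markers.

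The 39 genes lie in 4 clusters of GRCm38. The Hoxa cluster, of 11 genes, lies on the minus strand of chromosome 6, and the Hoxb cluster, of 10, spans 96194316 to 96368256 on the plus strand of chromosome 11. The Hoxc cluster, of 9, spans 102921103 to 103036852 of chromosome 15, and the Hoxd cluster, of 9, spans 74668310 to 74765142 of chromosome 2, both on the plus strand. Polycomb complexes are known to gather at promoters rich in CG dinucleotides, and the RefSeq table of promoters on GRCm38.p6 held 22 of the 39 genes in 24 start-site windows. In the 250 bases before the start, all of these windows, 100% against 92.1% of the 32851 windows of all genes, held the letters CG, with a median of 12.5 against 6. A GC content of at least 50% together with an observed-to-expected CG ratio of at least 0.6 was found in 45.8% of the Hox windows and 31.0% of all windows. The windows of Hoxb4, Hoxa5 and Hoxa13 are printed 5′ to 3′ on the coding strand with each CG in capitals, because Hoxb4 is the member with most UMIs in leukocytes, Hoxa5 leads several leukocyte gates, and Hoxa13 is a posterior gene seen almost only outside them. Hoxb4 is at chr11:96318017-96318266 on the plus strand, with 14 CG and 58% GC. Hoxa5 is at chr6:52204588-52204837 and Hoxa13 at chr6:52260881-52261130, both on the minus strand, with 28 and 35 CG and 63.6% and 80% GC.
Hoxb4: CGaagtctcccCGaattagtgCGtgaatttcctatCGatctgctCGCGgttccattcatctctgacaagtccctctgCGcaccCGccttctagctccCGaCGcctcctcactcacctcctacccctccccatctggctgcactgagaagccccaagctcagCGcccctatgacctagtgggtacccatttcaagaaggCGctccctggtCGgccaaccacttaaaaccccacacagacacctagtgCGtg
Hoxa5: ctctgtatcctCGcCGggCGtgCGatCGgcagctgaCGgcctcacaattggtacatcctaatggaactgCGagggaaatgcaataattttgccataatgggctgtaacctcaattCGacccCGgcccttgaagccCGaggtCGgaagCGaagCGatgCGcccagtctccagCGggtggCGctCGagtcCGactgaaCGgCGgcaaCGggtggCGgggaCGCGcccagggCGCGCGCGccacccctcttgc
Hoxa13: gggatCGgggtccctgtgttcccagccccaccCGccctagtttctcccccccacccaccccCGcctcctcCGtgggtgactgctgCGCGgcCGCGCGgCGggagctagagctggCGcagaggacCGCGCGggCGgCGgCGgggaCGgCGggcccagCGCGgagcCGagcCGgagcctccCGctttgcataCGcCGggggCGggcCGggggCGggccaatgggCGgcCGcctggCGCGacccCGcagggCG
All 3 windows hold more CG than the median window of all genes, but they do not stand for all members. Of other members with at least 10 UMIs in leukocytes, the windows of Hoxa6 and Hoxd1 hold 24 CG and that of Hoxa3 18. That of Hoxa7 holds 7, and those of Hoxd4 and Hoxa9 hold 3 each, under the median of 6.

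Hox transcripts were rare. The 39 genes together had 923 UMIs in the WT library and 712 in the Ring1AKO library, or 14.9 (13.97 to 15.9) and 10.3 CPM (9.57 to 11.1). The library labelled Ring1AKO was thus the lower of the pair, at 0.691 of the WT level (0.626 to 0.763). By gene, 27 of the 39 had at least 10 UMIs over both libraries and 12 had fewer. Of the latter, Hoxc5, Hoxc12, Hoxc13 and Hoxd12 had none in any kept cell, and the rest, such as Hoxa2, Hoxb1, Hoxc8 and Hoxd3, had 0 to 7 UMIs in a library. Hoxd3, with 7 UMIs against 0, was 2.60-fold lower in the Ring1AKO library when its 0 is set at a floor of 3 UMIs per library. The exact interval of its log2 ratio reaches up to -0.69.

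A CD45 sort leaves few other cells, and those few held much of the signal. Cells with at least 5 UMIs of the keratins Krt8, Krt18 and Krt19, at least 3 of the collagens Col1a1, Col1a2 and Col3a1, at least 3 of the endothelial genes Cdh5, Kdr and Plvap, or glial markers at the same limit, numbered 119 of 6005 and 83 of 7918, or 1.98% (1.64 to 2.37) and 1.05% (0.836 to 1.30). They are called cells with non-leukocyte markers, and the definition was chosen after the data were seen without the use of any Hox value. They held 470 of the 923 Hox UMIs labelled WT and 227 of the 712 labelled Ring1AKO, or 50.9% (47.6 to 54.2) and 31.9% (28.5 to 35.4). Their Hox level was 287 (261 to 314) and 248 CPM (216 to 282), against 7.52 (6.84 to 8.25) and 7.12 CPM (6.501 to 7.78) in all other cells. Ptprc had no UMI in 82 of the 119 and 61 of the 83. Summed over its 7 listed markers, the stromal list stood at 6070 and 6563 CPM in them and at 4.799 and 6.43 CPM elsewhere. The 8 epithelial markers stood at 3717 and 2209 CPM and at 50.1 and 46.1 CPM. The lists include the collagens and keratins by which the cells were chosen, so these sums are no separate check. Of listed genes not used in the choice, Dcn stood at 2643 and 2857 CPM in them and 1.66 and 3.42 CPM elsewhere. Epcam stood at 746 and 340 CPM in them and 38.97 and 36.09 CPM elsewhere.

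Without these cells the summed Hox levels of the libraries were close. The Hox genes had 453 and 485 UMIs, and the ratio was 0.947 (0.831 to 1.08), an interval that holds 1 and ends at 1.08-fold. This ratio pools classes whose shares differed between the libraries. Of all kept cells, the B gate held 19.6% and 45.4% and the myeloid gate 17.5% and 5.70%. The part of this mix in the pooled ratio was not tested, and single gates differed in direction, as given below. The lower Hox total of the Ring1AKO library was thus lost with the cells with non-leukocyte markers. Among them, the 20 and 9 keratin-rich cells had 243 and 27 Hox UMIs, at 370 (325 to 420) and 116 CPM (76.2 to 168), a log2 ratio of -1.68 (-2.31 to -1.10). These are few cells, and 1 of them held 61 of the 243 UMIs and another 15 of the 27. Without both, the log2 ratio was -2.0 (-2.98 to -1.16). The 82 and 55 collagen-rich cells had 200 and 165 UMIs, at 257 (222 to 295) and 305 CPM (261 to 356), with an interval of the log2 ratio that holds 0 (0.25, -0.06 to 0.55). The 16 and 18 cells with endothelial markers had 32 and 41 UMIs, at 184 (126 to 260) and 310 CPM (223 to 421), a log2 ratio of 0.75 (0.05 to 1.47).

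**Figure D1:**
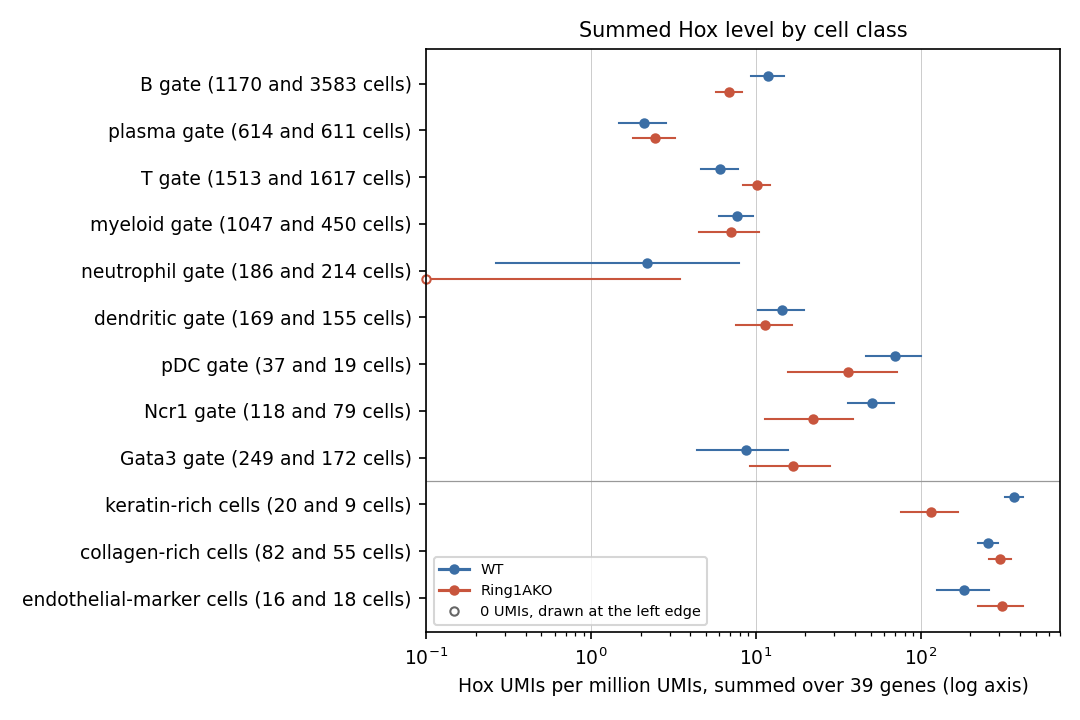
Summed Hox level by cell class, in CPM on a log axis, for the WT library (blue) and the Ring1AKO library (red), with exact 95% Poisson intervals and the number of cells of each library in brackets. Leukocyte gates above the line leave out cells with non-leukocyte markers and lie at or below 69.9 CPM, while the keratin-rich, collagen-rich and endothelial-marker cells below it lie between 116 and 370 CPM.

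Summed over cells with and without non-leukocyte markers, the members held followed the paralog number, though not evenly over the kinds of cell with such markers. The posterior share was 63.0% and 61.2% in collagen-rich cells, 58.4% and 18.5% in keratin-rich cells and 28.1% and 19.5% in cells with endothelial markers. The 16 posterior members, of paralog groups 9 to 13, which are known for patterning the hindgut, limb and urogenital tract, made up 58.1% and 48.9% of Hox UMIs in cells with non-leukocyte markers and 6.40% and 2.89% in the other cells. The 12 anterior members, of groups 1 to 4, made up 14.3% and 16.7% in the former and 60.7% and 56.5% in the latter. Free RNA lay between, since barcodes with fewer than 100 UMIs had 244 and 223 Hox UMIs, of which 34.8% and 27.4% were posterior and 32.0% and 37.7% anterior. Hoxb4 alone made up 13.1% and 16.1% of the cell-free Hox UMIs and 45.0% and 40.0% of those in cells without non-leukocyte markers.

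Gene by gene, over both libraries, the share of UMIs in cells with non-leukocyte markers was 2.63% for Hoxd1, 7.01% for Hoxb4, 19.0% for Hoxd4 and 19.5% for Hoxa5, and 31.2% for Hoxa7. It was 79.2% for Hoxa9, 88.2% for Hoxb13, 91.5% for Hoxb9 and 92.9% for Hoxa13, and 94.7% to 100% for Hoxd8, Hoxd9, Hoxd10, Hoxd11 and Hoxd13. Hoxb2 and Hoxb5, low in number, lay apart from the other members of low paralog number at 100% and 91.7%, and Hoxc9 lay apart from the posterior members at 27.3%. The others ran from 20.8% for Hoxa6 and 35.0% for Hoxb3, over 55.6% for Hoxa3, 68.4% for Hoxb7 and 70.8% for Hoxb6, to 80.0% for Hoxc6 and Hoxc10, 83.3% for Hoxb8, 97.1% for Hoxa10 and 97.8% for Hoxa11. Cells with several members were nearly all of this kind. Of the cells with at least 3 different Hox genes, 46 of 51 in the WT library and 27 of 30 in the Ring1AKO library had non-leukocyte markers, and of those with at least 5, all 13 and all 12 did.

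**Figure D2:**
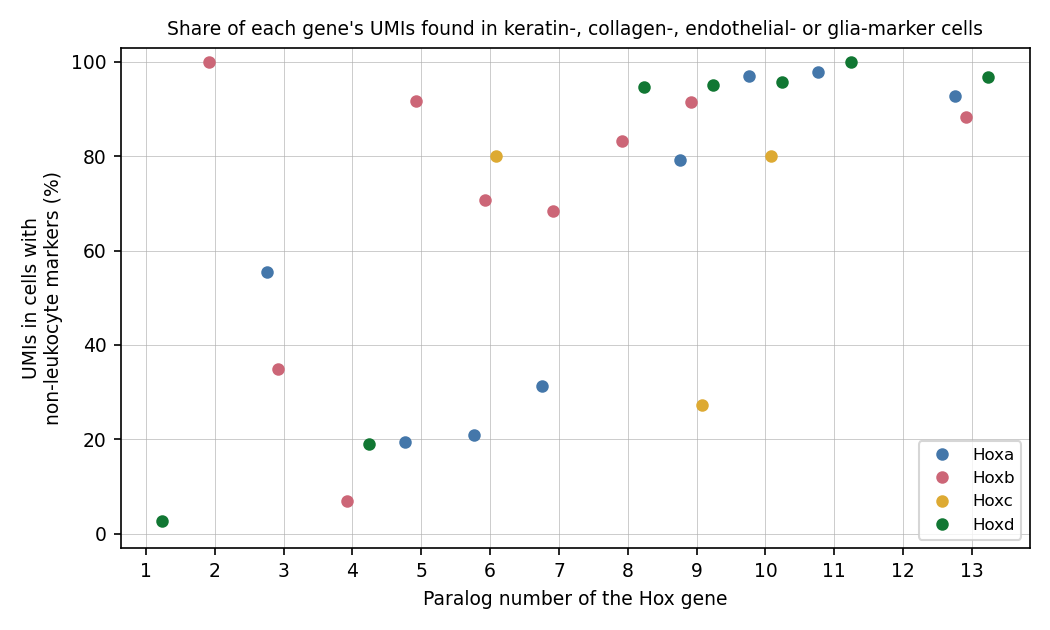
Percent of a Hox gene's UMIs, over both libraries, found in cells with keratin, collagen, endothelial or glial markers (vertical axis) against its paralog number (horizontal axis), for the 27 genes with at least 10 UMIs, coloured by cluster. Hoxb4 and Hoxd1 lie at 7.01% and 2.63%, and every gene of paralog number 8 to 13 other than Hoxc9 lies at 79.2% or above.

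The leading posterior genes of keratin-rich and of collagen-rich cells were not the same. Hoxb9 had 46 UMIs in 12 of the 20 keratin-rich cells labelled WT and 3 in 1 of the 9 labelled Ring1AKO, and Hoxa9 had 31 and 2. Hoxb13, the most posterior member of its cluster, had 30 UMIs and 0, but the 30 came from 3 cells, 1 of which held 14. In collagen-rich cells it had none in either library, and Hoxb9 had 1 and 2 UMIs. The leading members there were Hoxa10 with 24 and 19 UMIs, Hoxa11 with 23 and 15 and Hoxd13 with 18 and 13, and Hoxd11 and Hoxd13 had no UMI in the keratin-rich cells of either library. Hoxd10 had 15 and 6 UMIs in the collagen-rich cells and Hoxa13 14 and 7, while Hoxc6 had 1 and 7. Hoxa10 was also in keratin-rich cells labelled WT, with 23 UMIs against 0. Hoxa7, of the central group, had 23 and 8 UMIs in keratin-rich cells, at 35.0 and 34.2 CPM, and led those labelled Ring1AKO.

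**Figure D3:**
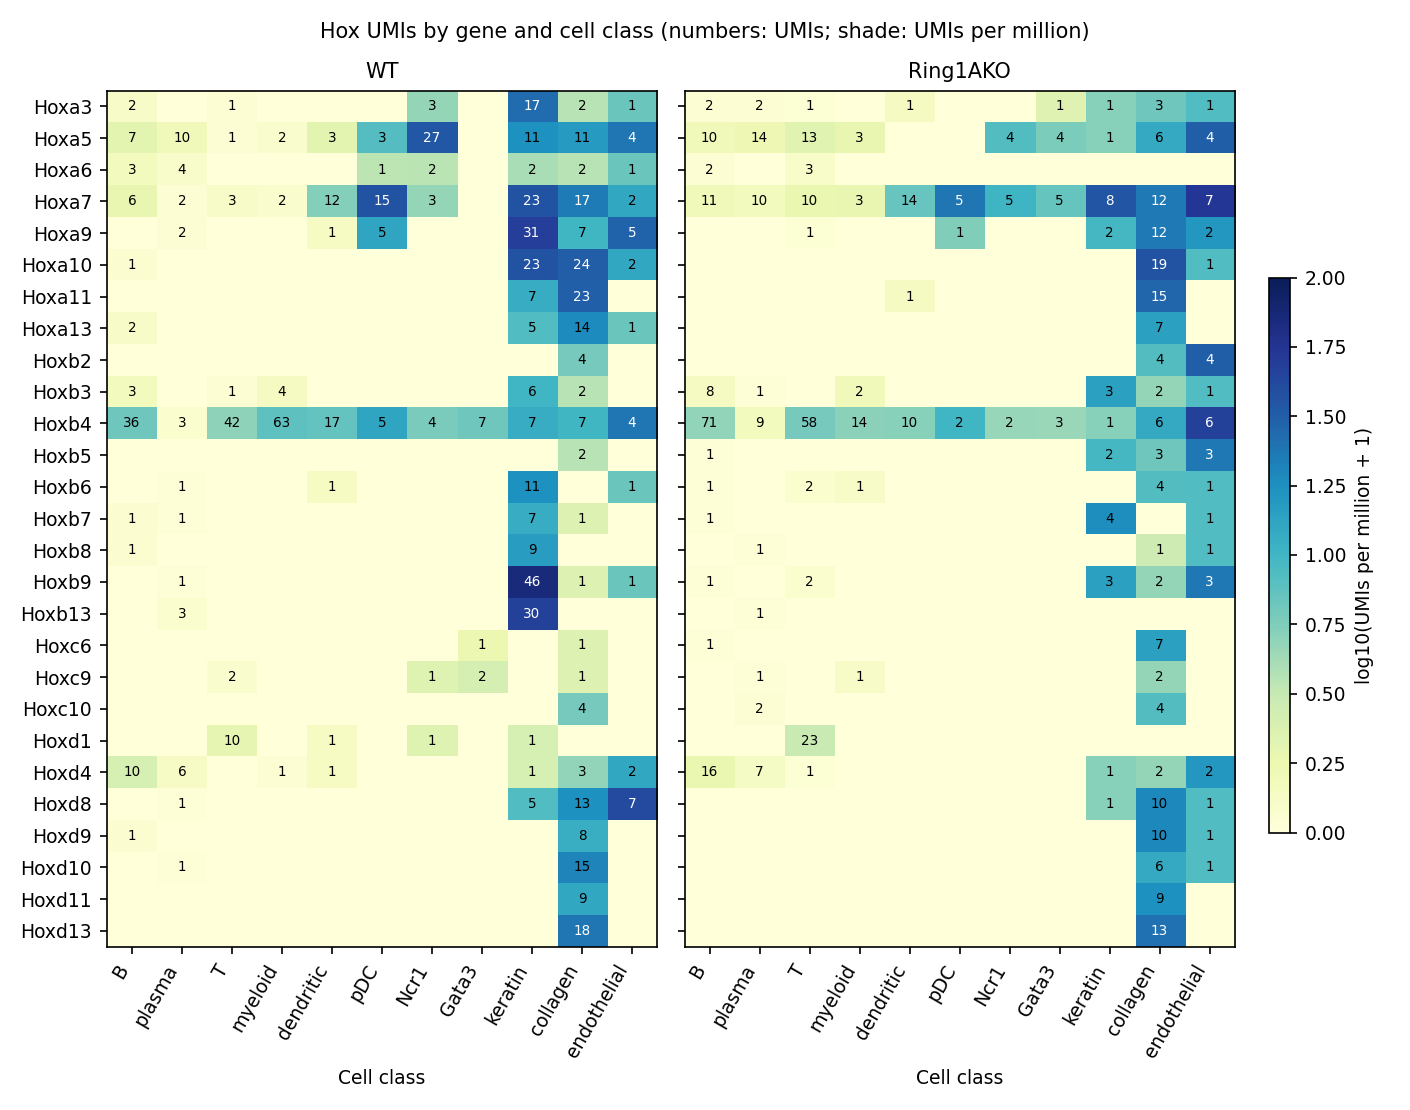
UMIs (numbers) and level (shade, log10 of CPM plus 1) of the 27 Hox genes with at least 10 UMIs in each cell class of the WT library (left) and the Ring1AKO library (right), with gates shown without cells with non-leukocyte markers. Hoxb4 is seen across the B, T, myeloid and dendritic gates, Hoxa7 in the pDC and Ncr1 gates, Hoxa5 in the Ncr1 gate, and the posterior genes mainly in the keratin and collagen columns.

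The members most seen in leukocytes were Hoxb4, Hoxa5 and Hoxa7. Hoxb4, best known for expanding blood stem cells when overexpressed, had 204 and 194 UMIs outside cells with non-leukocyte markers, or 3.39 and 2.85 CPM, with a log2 ratio of -0.25 (-0.54 to 0.04). Hoxa5, which has roles in lung, mesenchyme and myeloid and erythroid progenitors, had 69 and 80 UMIs, 1.15 and 1.17 CPM, with a log2 ratio of 0.04 (-0.45 to 0.52). Hoxa7, a member of the central group that is often raised together with Hoxa9 in leukaemias with Kmt2a fusions, had 57 and 95 UMIs, 0.946 and 1.40 CPM. Its log2 ratio of 0.56 (0.07 to 1.06) was the only one, among 9 members with at least 10 UMIs, whose interval lay above 0 there. The share of all genes with such an interval is not given here, so nothing about Hox genes is read from it. The ratio also pools gates of unequal share, and single gates differed in direction for Hoxa7, as given below. Over all kept cells Hoxa7 had 99 and 122 UMIs and a log2 ratio of 0.14 (-0.25 to 0.54).

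Of the anterior members, Hoxd4 had 23 and 24 UMIs in these cells, Hoxd1 12 and 25, Hoxb3 12 and 14 and Hoxa3 8 and 12. The log2 ratio of Hoxd1, which acts in the nervous system among other places, was 0.88 (-0.17 to 2.01). Of the central group Hoxa6 had 11 and 8 UMIs. Hoxa9, the member tied most closely to blood stem cells and acute myeloid leukaemia, had 11 and 4 UMIs, a log2 ratio of -1.64 (-3.74 to 0.12). No other member had more than 6 UMIs in a library outside cells with non-leukocyte markers, so a difference there was not detectable at this depth. As a group, the 16 posterior members had 29 and 14 UMIs in these cells, a log2 ratio of -1.23 (-2.26 to -0.26), the 12 anterior members 275 and 274 (-0.18, -0.43 to 0.06) and the 11 central members 149 and 197 (0.22, -0.09 to 0.54).

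**Figure D4:**
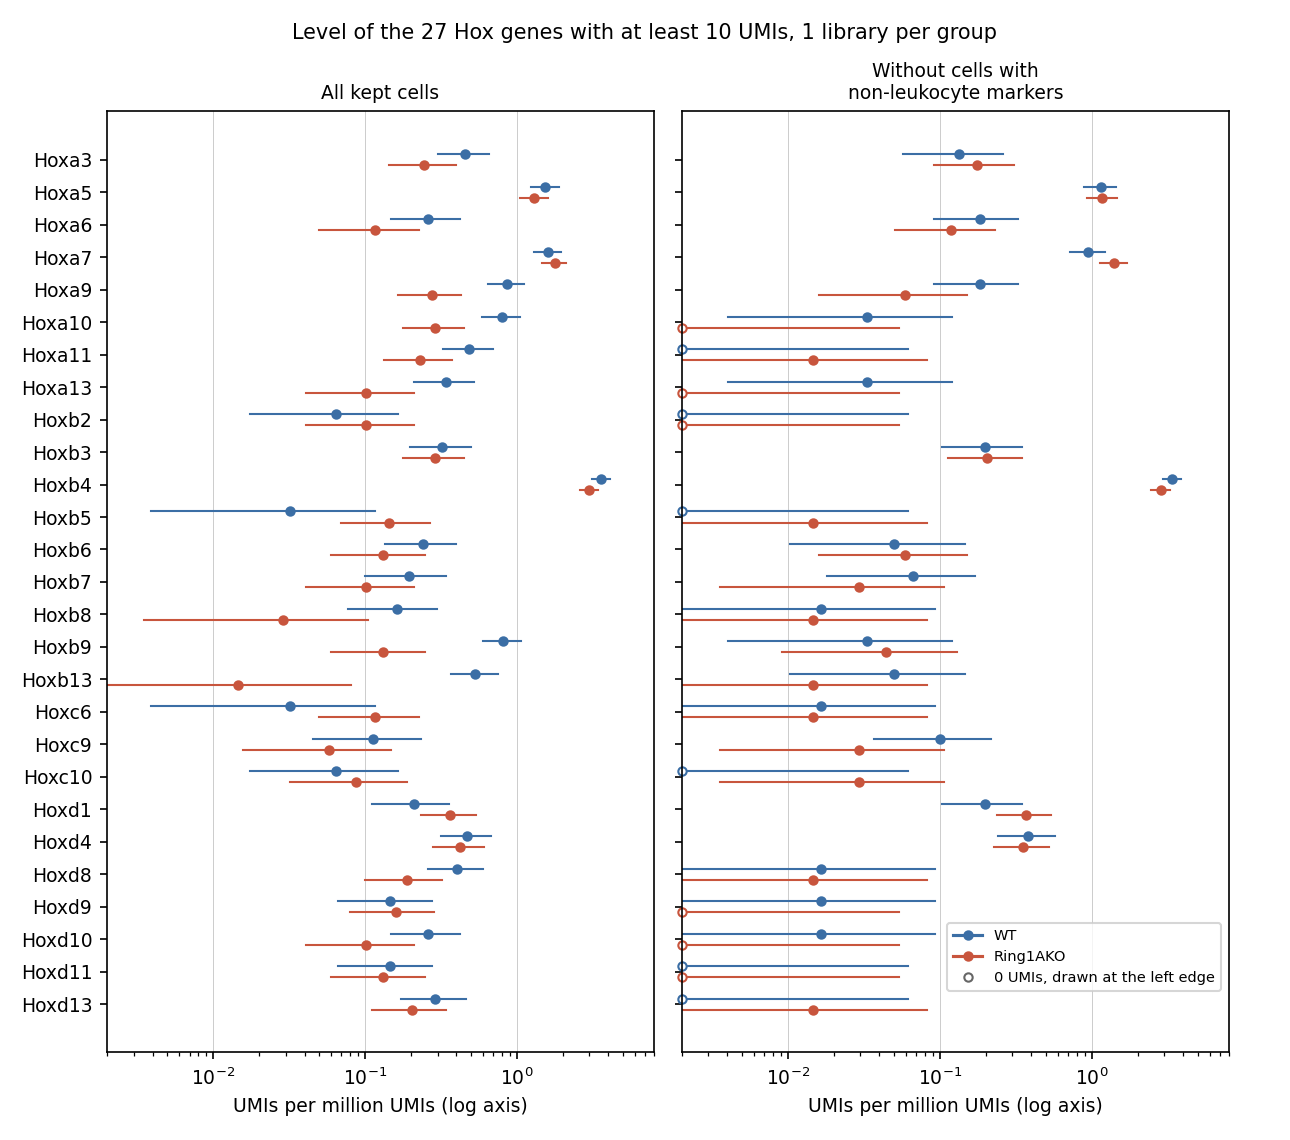
Level of the 27 Hox genes with at least 10 UMIs in the WT library (blue) and the Ring1AKO library (red), in CPM on a log axis with exact 95% Poisson intervals, in all kept cells (left) and without cells with non-leukocyte markers (right). Hoxb4 at 3.39 and 2.85 CPM is the highest on the right, where most posterior genes fall to a few UMIs or none.

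Past 2-fold with at least 10 UMIs over both libraries, 2 of 27 members were higher in the Ring1AKO library over all kept cells, against 2.68% of all 16665 genes that reached 10 UMIs, and 10 of 27 were lower, against 11.4%. Genes of low count passed 2-fold more often, and among genes with 10 to 99 UMIs the shares were 7.80% and 25.0%, for 2 and 10 of 24 members. The higher pair were Hoxb5, with 2 and 10 UMIs, and Hoxc6, with 2 and 8, whose intervals of the log2 ratio hold 0 (2.16, -0.07 to 5.39, and 1.84, -0.48 to 5.12). The lower 10 were Hoxa6, Hoxa9, Hoxa10, Hoxa11, Hoxa13, Hoxb8, Hoxb9, Hoxb13, Hoxd8 and Hoxd10. They ran from Hoxb13, with 33 and 1 UMIs and a log2 ratio of -5.20 (-10.55 to -2.62), and Hoxb9, with 50 and 9 UMIs and -2.63 (-3.84 to -1.59), to Hoxa11, with 30 and 16 UMIs and -1.07 (-2.04 to -0.14). All but Hoxa6 had at least 79.2% of their UMIs in cells with non-leukocyte markers. Without those cells, none of 9 members was higher by 2-fold, against 3.14% of all genes, and 1 of 9, Hoxa9, was lower, against 8.64%.

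Of the 15 members with at least 10 UMIs that were within 2-fold over all kept cells, Hoxb4 had 222 and 206 UMIs, Hoxa5 95 and 90, Hoxd4 29 and 29, Hoxb3 20 and 20 and Hoxd13 18 and 14. Hoxa3 had 28 and 17, Hoxd1 13 and 25, Hoxb6 15 and 9, Hoxb7 12 and 7, Hoxd9 9 and 11 and Hoxd11 9 and 9. Hoxc9, Hoxc10 and Hoxb2 had 7 and 4, 4 and 6, and 4 and 7 UMIs. For each of these 14 and for Hoxa7 the interval of the log2 ratio holds 0.

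By class, and without cells with non-leukocyte markers, the B gate had 77 Hox UMIs in 1170 cells labelled WT and 128 in 3583 cells labelled Ring1AKO. The level was 11.9 (9.37 to 14.8) and 6.91 CPM (5.77 to 8.22), a log2 ratio of -0.78 (-1.20 to -0.35). With all 1174 and 3592 kept cells of the gate the UMIs were 81 and 189 and the log2 ratio was -0.30 (-0.68 to 0.09), so that a few cells with non-leukocyte markers held a large part of the UMIs labelled Ring1AKO. Hoxb4 led with 36 and 71 UMIs in 33 and 67 cells, at 5.55 and 3.83 CPM, a log2 ratio of -0.53 (-1.13 to 0.09), and Hoxd4, Hoxa5 and Hoxa7 followed at log2 ratios of -0.84, -1.0 and -0.64, each with an interval that holds 0. None of the 5 members with at least 10 UMIs was past 2-fold higher or lower, against 2.60% and 9.44% of all genes in that gate. Plasma cells were the deepest class, at medians of 27227 and 33422 UMIs. Their Hox level was low in CPM, with 38 and 48 UMIs, 2.09 (1.48 to 2.86) and 2.45 CPM (1.81 to 3.25). The log2 ratio was 0.23 (-0.41 to 0.88). Over all kept cells of this gate, the 6 listed plasma markers held 215359 and 224106 CPM. CPM thus does not rank gates by Hox transcripts per cell. At unequal depth, 5.05% and 7.04% of plasma cells had a Hox UMI. In the B gate 5.98% and 2.87% did, and in the T gate 3.30% and 5.07%. Thinned to 1000 UMIs, these shares were 0.651% and 0.327%, 1.11% and 0.586%, and 0.727% and 0.866%. The part of the markers in the low CPM was not tested. Hoxa5 led in plasma cells with 10 and 14 UMIs. Hoxa7, with 2 and 10 UMIs, and Hoxb4, with 3 and 9, were past 2-fold higher, 2 of 4 members against 2.52% of all genes, or 5.98% of those with 10 to 99 UMIs, and none was lower, against 10.7%. Their log2 ratios were 2.22 (-0.01 to 5.45) and 1.48 (-0.52 to 4.0).

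In the T gate the Hox level was higher in the Ring1AKO library once the few cells with non-leukocyte markers were left out. There were 63 UMIs in 1513 cells and 116 in 1617 cells, or 6.06 (4.65 to 7.75) and 10.1 CPM (8.38 to 12.2), a log2 ratio of 0.74 (0.29 to 1.21). With all 1518 and 1620 kept cells of the gate there were 135 and 119 UMIs and the log2 ratio was -0.31 (-0.68 to 0.06), so the direction turned with a handful of cells. No T cell counted without them held more than 3 and 6 Hox UMIs, and without the cell with most in each library the log2 ratio was 0.74 (0.27 to 1.22). Of the 4 members with at least 10 UMIs in the gate, Hoxa5, Hoxa7 and Hoxd1 were past 2-fold higher, against 3.52% of all genes in that gate and 10.6% of those with 10 to 99 UMIs, and Hoxb4, with 42 and 58 UMIs, was not (0.33, -0.27 to 0.94). None was past 2-fold lower, against 4.86%. Free RNA had a Hox level of 25.0 (22.0 to 28.3) and 25.3 CPM (22.1 to 28.9), and its posterior share of 34.8% and 27.4% compared with 4.76% and 2.59% in the T gate. It also held 20 and 24 UMIs of Hoxa5 and 32 and 36 of Hoxb4. The part of free RNA in the Hox UMIs of the T gate was not tested.

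Hoxa5 in T cells had 1 UMI in 1 cell labelled WT and 13 in 10 cells labelled Ring1AKO, a log2 ratio of 3.56 (0.83 to 8.97), and 1 and 11 UMIs (3.32, 0.54 to 8.75) in T cells without an Ncr1 UMI. In T cells with a Trac UMI Hoxa5 had 1 and 8 UMIs, and the interval holds 0 (2.85, -0.05 to 8.32). In the 221 and 252 cells of the gate without Trac it had 0 and 5 UMIs, and Hoxa7 had 2 and 6. Hoxa7 had 3 and 10 UMIs, but 5 of the 10 were in 1 cell, and its interval holds 0 (1.60, -0.36 to 4.10). Hoxd1 had 10 UMIs in 8 cells and 23 in 11 cells, a log2 ratio of 1.06 (-0.06 to 2.30), and 6 of the 23 were in 1 cell. Nearly all Hoxd1 UMIs of the leukocytes were in T cells, 10 of 12 and 23 of 25. Within the gate, by a split chosen after the values were seen, 8 of the 10 and 19 of the 23 were in the 140 and 104 cells with an Il17a UMI, the cytokine of type 17 T cells. Only 6 and 7 of these cells held them. The Hoxd1 level in the cells with Il17a was 6.20 (2.68 to 12.2) and 19.9 CPM (12.0 to 31.0), against 0.219 and 0.382 CPM in T cells without Il17a. The 456 and 508 T cells with a Cxcr6 UMI held 10 and 20 Hoxd1 UMIs, so the split is not particular to Il17a. No Hoxd1 UMI was seen in the 492 and 580 T cells with Cd8a or in the 209 and 229 with Foxp3, the factor of regulatory T cells. Hoxb4 differed from it, at 12.3 (7.30 to 19.5) and 10.2 CPM (6.68 to 15.0) in T cells with Foxp3 and 2.68 and 3.60 CPM in those without.

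In the myeloid gate Hoxb4 made up most of the signal, with 63 of 74 and 14 of 24 Hox UMIs, at 6.51 and 4.11 CPM, a log2 ratio of -0.66 (-1.61 to 0.19). The summed level was 7.64 (6.00 to 9.60) and 7.04 CPM (4.51 to 10.5). Neutrophils had 2 and 0 Hox UMIs in 186 and 214 cells, at median depths of 4462.5 and 4962 UMIs. The intervals of their level reach up to 7.93 and 3.48 CPM, so they cannot be ranked against the other low gates. Of the gates set on ungated cells, the dendritic gate (Flt3) had 40 and 27 UMIs, at 14.5 (10.3 to 19.7) and 11.4 CPM (7.54 to 16.6). Over both libraries it was led by Hoxb4 with 17 and 10 UMIs. Hoxa7 followed with 12 and 14, and led in the Ring1AKO library. Plasmacytoid cells (Siglech) had 29 and 8 UMIs in 37 and 19 cells, led by Hoxa7 with 15 and 5, at 69.9 (46.8 to 100.3) and 36.4 CPM (15.7 to 71.8). The intervals of all 3 log2 ratios, -0.12, -0.34 and -0.94, hold 0.

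Hox levels were also high in an innate lymphoid gate, in cells with no Cd3e UMI. The Ncr1 gate, with Ncr1 a receptor of natural killer and some innate lymphoid cells, had 41 and 12 UMIs in 118 and 79 cells, at 50.5 (36.3 to 68.6) and 22.1 CPM (11.4 to 38.7), a log2 ratio of -1.19 (-2.25 to -0.24). Over both libraries Hoxa5 led it, with 27 UMIs in 11 cells and 4 in 3 cells, at 33.3 and 7.38 CPM. Its log2 ratio was -2.17 (-4.15 to -0.65), and 10 of the 27 UMIs were in 1 cell. Without the top cell of each library the ratio was -2.53 (-5.68 to -0.45). In the Ring1AKO library Hoxa7 made up more of the Hox UMIs of the gate than Hoxa5, at 41.7% against 33.3%. Marker levels in this gate also differed. Il22, Il23r and Ccr6, genes of type 3 innate lymphoid cells, summed to 1627 and 4668 CPM, from 1320 and 2531 UMIs. Il22 alone held 1303 and 2515 of these UMIs and was seen in 12.7% and 16.5% of the cells. The natural killer and ILC1 list stood at 2799 and 2169 CPM. Whether the makeup of the gate differed, and its part in the Hox difference, was not tested.

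The Gata3 gate had 11 and 14 Hox UMIs, at 8.75 (4.37 to 15.7) and 16.9 CPM (9.21 to 28.3), with Hoxb4 at 7 and 3, Hoxa7 at 0 and 5 and Hoxa5 at 0 and 4 UMIs. Ungated cells in none of the gates used had 22 and 36, at 10.4 (6.52 to 15.7) and 19.7 CPM (13.8 to 27.2), a log2 ratio of 0.92 (0.12 to 1.76). Over both libraries Hoxa5 led them with 5 and 17 UMIs, while in the WT library Hoxb4 made up 36.4% and Hoxa5 22.7%. In all 412 and 387 kept cells of this rest, Dcn had 13 and 133 UMIs, seen in 1.21% and 1.55% of the cells. Ptprc was seen in 89.1% and 78.0% of them. Whether the makeup of this rest differed, and its part in the Hox difference, was not tested. Cells in several lineage gates, which can be doublets, had 34 and 35 UMIs, led by Hoxb4 with 16 and 17. Over all ungated cells together the level was 20.2 (17.2 to 23.5) and 19.7 CPM (16.5 to 23.4), and of 5 members none was past 2-fold higher, against 3.38% of all genes there, and 1, Hoxa9, was lower, against 7.16%. The stromal gate with all kept cells had 164 and 119 UMIs, led by Hoxa10 with 23 and 11. The epithelial gate, set on Epcam, had 175 and 13, led by Hoxb9 with 26 and 0. Its cells were mixed, since Ptprc was seen in 76.3% and 79.3% of them and Krt8 in 44.7% and 20.7%. Of its 38 and 29 cells, 23 and 25 lay outside the cells with non-leukocyte markers, so its counts do not compare epithelium alone. The directions of the classes thus differed, lower in the B and Ncr1 gates and higher in the T gate and the remaining ungated cells, and no test of these differences between classes was possible with 1 library per group.

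Per cell, 7.44% (6.79 to 8.14) of WT and 5.39% (4.91 to 5.91) of Ring1AKO cells had a Hox UMI, at unequal depth. With each cell thinned to 1000 UMIs, which left out no cell, the shares were 1.07% (0.822 to 1.36) and 1.16% (0.938 to 1.42), and without cells with non-leukocyte markers 0.815% (0.602 to 1.08) and 0.779% (0.596 to 0.999). Neutrophils, mature cells that should lack most Hox transcripts, gave 2 of 186 unthinned, 1.08% (0.130 to 3.83), and 0 of 214, which by 3 cells of the total allows a share of up to 1.40% of cells with a UMI. After thinning they gave 0 of 186 and 0 of 214, which by the same limit allows up to 1.61% and 1.40%.

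Genes that work with or around the Hox genes were read from lists, by counts and medians alone. Of 9 cofactors of the Meis, Pbx and Pknox families, which bind DNA together with Hox proteins, none was past 2-fold higher over all kept cells, against 2.68% of all genes, and 1, Pknox2, was lower, against 11.4%, with a median log2 ratio of -0.19 against -0.16 over all genes. Abundant members were Pknox1 with 1035 and 1160 UMIs (0.01) and Pbx2 with 861 and 990 (0.04). Of the 4 activators that keep Hox genes on, none was past 2-fold in either direction, against the same shares. Kmt2a, the histone H3 lysine methyltransferase MLL1, had 9258 and 6211 UMIs (-0.73), Psip1, which tethers it to chromatin, 5318 and 4875 (-0.28), and Dot1l 5979 and 5268 (-0.34). The caudal genes Cdx1 and Cdx2, intestinal factors upstream of posterior Hox genes, had 176 and 53 and 64 and 24 UMIs. Outside cells with non-leukocyte markers Cdx1 had 11 and 3 UMIs and Cdx2 3 and 4, and Cdx4 had none in any kept cell.

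Of the 10 genes that flank the clusters, 7 had at least 10 UMIs, and of these none was higher by 2-fold, against 2.68% of all genes, and 1, Snx10, with 2676 and 1175 UMIs, was lower, against 11.4%. Skap1 and Skap2, adaptors of immune cells next to Hoxb and Hoxa, had 3344 and 3661 and 4288 and 2735 UMIs. Of the 10 non-coding genes within the clusters, 5 had at least 10 UMIs, none was higher and 1 was lower, against the same 2.68% and 11.4%. That was Hotairm1, a transcript of the anterior Hoxa cluster known from myeloid cells, with 179 and 84 UMIs (-1.25), and it had 151 and 76 outside cells with non-leukocyte markers. Hoxaas3 had 46 and 48 UMIs, and 23 and 43 outside those cells (0.73). Hoxa11os had 37 and 23, of which 0 and 1 lay outside them. The myeloid gate held 17.5% of kept WT cells and 5.70% of kept Ring1AKO cells. The part of this in the ratios of Hotairm1, Snx10 and Skap2 was not tested.

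Among 65 other developmental genes known as polycomb targets, 25 had at least 10 UMIs and 15 had none at all. Over all kept cells 2 of the 25 were higher by 2-fold, Hand1 with 0 and 15 UMIs among them, against 2.68% of all genes, and 7 lower, Gata6, Foxa1, Foxa2, Foxf1, Isl1, Neurod1 and Bmp4, against 11.4%. Among genes with 10 to 99 UMIs those shares were 7.80% and 25.0%. The median log2 ratio of the 25 was -0.51 against -0.16 over all genes. Without cells with non-leukocyte markers 14 had at least 10 UMIs, 1 was higher, Gata6, with 3 and 7 UMIs, against 3.14% of all genes, and 2 lower, Tbx2 and Bmp4, against 8.64%, with a median of -0.22 against -0.12 over all genes. The most abundant were Pax5, the identity factor of B cells, with 2308 and 5030 UMIs (0.97), Bmp4, a signal of gut mesenchyme, with 588 and 300 (-1.13), and Cdkn2a, the locus through which polycomb is known to limit senescence, with 287 and 231 (-0.47). The B gate held 19.6% of kept WT cells and 45.4% of kept Ring1AKO cells, and the part of this in the Pax5 ratio was not tested. For Bmp4, 18 and 9 UMIs lay outside cells with non-leukocyte markers, and for Cdkn2a 286 and 231 did.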

How the data were processed

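The deposited files were UMI count matrices of all barcodes, before any selection of cells, which the authors made with Cell Ranger and did not normalize. The study's methods give mm10, the file header names Cell Ranger 4, and the submitters' processing notes list version 6.0.2 and mm39. Ensembl gene IDs, all 39 found in GENCODE vM21, were used to join coordinates on GRCm38. Hoxc5, Hoxc10, Hoxd3 and Hoxd4 share exon bases with a neighbour, so their UMIs could be split or lost by the counting.

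Depth per library, cell limits and gates stand in the report. Plasma, neutrophil and myeloid gates took 50, 50 and 10 UMIs per 10000 of Jchain, S100a8 and Lyz2, the B gate 2 UMIs of Cd79a and the T gate 1 of Cd3e. Cells past the gates of several lineages were set aside, no doublet caller was run, and an upper limit of 6000 genes was tried. UMIs were summed per class and library. Intervals are exact (Poisson for levels, conditional for ratios, Clopper-Pearson for shares), at 95%. Only those of ratios were tested, on simulated independent Poisson counts, which lack the clustering of Hox UMIs in single cells seen here. A member counts as past 2-fold with at least 10 UMIs over both libraries. Every Hox gene was accounted for, and those with at least 10 UMIs were given with values. In each class with at least 20 Hox UMIs the leading member, by UMIs over both libraries, was named. From each other list the 3 genes with most UMIs were named. A few genes and 1 gate chosen by these rules are not reported here. Members past 2-fold, splits of the T gate and genes of single classes beyond these were named after their values were seen.

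The members, lists and gates were chosen with earlier results of these data known. The alternatives were other cell filters, scalings, gates, fold limits and minimum UMIs and a correction for cell-free RNA, and leaving out cells with non-leukocyte markers was added after the data were seen. Scripts ran under matplotlib 3.10.9, pandas 2.3.3, scipy 1.17.1, numpy 2.4.6 and Python 3.11.15.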

Additional observations from a re-analysis of the deposited data

Results flagged for a closer look

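Hoxa5 went opposite ways in a pair of lymphoid gates. Its log2 ratio was 5.74 higher in the T gate, with 1 WT and 13 Ring1AKO UMIs, than in the Ncr1 gate, with 27 and 4 UMIs, and with 1 library per group this difference was not tested.

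Barcodes at or over the mitochondrial limit of 5%, which no comparison above uses, had 55 Hox UMIs in 387 barcodes in the WT library and 187 in 501 in the Ring1AKO library, or 38.0 (28.6 to 49.5) and 84.0 CPM (72.4 to 96.9), a ratio of 2.21 (1.63 to 3.04). Of these UMIs, 41 and 164 lay in 23 and 26 barcodes with non-leukocyte markers. Hoxb9 had 7 UMIs in the WT library and 42 in the Ring1AKO library there, Hoxb6 3 and 36, and Hoxa7 reached 19 in the Ring1AKO library. A single barcode of the Ring1AKO library, with 179294 UMIs and 5.39% of them mitochondrial, held 58 of the 187, with 16 of Hoxb9 and 18 of Hoxb6. In cell-free barcodes Hoxb8 had 1 UMI in the WT library and 9 in the Ring1AKO library. With 1 library per group these differences were not tested.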

How the results depend on the processing

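No paired analysis was possible because each group is 1 library with no replicate. The log2 ratio of the summed Hox level, -0.53 as reported, stayed negative under each alternative run and was -0.35 under 10% mitochondrial UMIs, -0.31 under 6000 genes per cell, -0.27 over every barcode, -0.18 without the stromal and epithelial gates, -0.079 without cells with non-leukocyte markers and -0.085 with the last and 10% together. Members past the fold limit higher were 5 of 28 under 10% mitochondrial UMIs, 4 at 1.5-fold and 0 at 20 UMIs, and members lower were 6 of 25 under 6000 genes. No share of all genes under these changed rules is given here, so nothing about Hox genes is read from these counts. Without cells with non-leukocyte markers 0 of 9 were higher, against 3.14% of all genes, and 1 of 9 was lower, against 8.64%. By class, gates at 1 UMI gave -1.02 for B, -0.53 for plasma, 1.73 for T, 1.09 for myeloid and 0.36 for ungated cells, the last turned from -0.51. Gates at double their limits gave -0.74 for B and 0.33 for T, 6000 genes gave -0.19 for ungated cells, and without cells with non-leukocyte markers B was -0.78, T 0.74 and ungated -0.035. The share of cells with a Hox UMI was 2.22% and 1.97% when thinned to 2000 UMIs, and 0.815% and 0.779% when thinned to 1000 UMIs without cells with non-leukocyte markers. With 2000 UMIs per cell as the filter it was 0.888% in the Ring1AKO library. The WT share under that filter is not given here, so the libraries are not compared by it. Hoxb9 turned from -2.63 to 0.41 without those cells, with 2 and 3 UMIs left. Under 10% mitochondrial UMIs Hoxb6 was 1.00 and Hoxb9 -0.65. The ratio of T cells thus turned from -0.31, that of myeloid cells from -0.22, that of plasma cells from 0.21 and that of Hoxb6 from -0.90, though the intervals of these reported values hold 0. The causes were not tested. With 1 library per group and most members under 30 UMIs, counting error limits each single gene.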
